A study of Macaca fascicularis with 6 samples.

Results

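Cells make cholesterol from acetyl-CoA in a long chain of steps: the mevalonate steps lead to farnesyl diphosphate, which is joined into squalene, closed into the sterol ring and trimmed to cholesterol. Sterol-regulated transcription of this chain runs through the SREBP proteins, which SCAP carries out of the endoplasmic reticulum and which INSIG proteins hold back when sterols are plentiful. In the mouse, oocytes are known to make little cholesterol of their own and to be supplied by the cumulus cells around them. The 8 genes described here were taken by name from the count table, which holds 28164 genes. HMGCS1 stands for the early steps, FDFT1, SQLE and LSS for squalene and the first sterol ring, and SC5D and DHCR7 for the last steps. INSIG1 is the regulator, and STARD5 is a cytosolic sterol-binding protein of the START family. None of the 8 is a lipoprotein receptor, so genes of cholesterol uptake are given from a separate list.

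The study compared 3 groups of oocytes from the crab-eating macaque (Macaca fascicularis), with 2 libraries in each. IVM MII oocytes had reached the second meiotic metaphase in vitro, IVO MII oocytes had reached it in vivo, and GV oocytes were immature, with the germinal vesicle still present. All oocytes were stripped, wild type and without treatment, and neither their age nor how many oocytes or animals made up a library is stated. RNA was copied from its poly(A) tail and amplified as full-length cDNA, so a level is a share of the poly(A)-primed RNA of its library. Fewer molecules and shorter poly(A) tails, or fewer cells of a type and less RNA per cell, cannot be told apart in such data.

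Library totals ran from 27707021 to 35515139 counts. Levels are in CPM, a count scaled to its library total with TMM factors, given as the mean ± SD of n = 2 libraries, and a value after a log2 fold change is its standard error. All 16 oocyte identity markers were at 1 CPM or more in every group, and their summed level was 25220 and 31004 CPM in the IVM MII libraries, 31893 and 33232 in those of IVO MII, and 48325 and 54818 in those of GV. Of 19 cumulus and granulosa markers in the table, 14 lay under 1 CPM in each group, and AMHR2, INHA, FOXL2, PTX3 and STAR had no count in any library. The summed level of these 19 was 88.9 and 86.7 CPM in the IVM MII libraries, 37.8 and 54.1 in those of IVO MII, and 41.0 and 35.4 in those of GV. Theca, stroma and endothelium markers, 11 in all, summed to 156 to 163 CPM in IVM MII, 90.9 to 95.6 in IVO MII and 331 to 390.0 in GV. The endothelial gene VWF alone gave 102 to 105 CPM of this sum in IVM MII, 41.8 to 46.0 in IVO MII and 288 to 337 in GV. PECAM1, also endothelial, was lowest in GV, at 9.34 ± 2.54 CPM against 19.4 ± 0.354 in IVM MII and 15.6 ± 2.93 in IVO MII. CDH5, the other endothelial gene, was at 31.3 ± 4.13 CPM in IVM MII, 24.8 ± 2.77 in IVO MII and 32.8 ± 9.32 in GV, without a call. The 8 blood and immune markers summed to 4.38 to 13.7 CPM over all libraries. LUM, CYP17A1, CD3E and HBB had no count in any library.

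Between MII oocytes matured in vitro and in vivo, SQLE, the squalene epoxidase, had the largest difference of the 8. It averaged 19.0 ± 4.22 CPM in IVM MII against 2.71 ± 0.878 CPM in IVO MII, 6.98-fold higher in IVM MII. STARD5 and SC5D were also higher in IVM MII and DHCR7 was lower. In all, 3 of the 8 genes were higher and 1 was lower by edgeR's quasi-likelihood test at an adjusted p under 0.05. Across all 15815 genes tested, 14.3% were higher and 10.3% lower, 24.6% together. Against GV, 6 of the 8 genes were higher in IVM MII and 1, STARD5, was lower, where 25.6% of all genes tested were higher and 24.7% lower, 50.3% together. In IVO MII, 5 were higher than in GV and 2, SQLE and STARD5, were lower, where 28.1% of all genes were higher and 30.5% lower, 58.5% together. The median log2 fold change of the 8 was 0.21 for IVM MII over IVO MII, 1.16 for IVM MII over GV and 1.09 for IVO MII over GV, beside 0.02, 0.06 and -0.07 for all genes. The GV libraries are shared by the last 2 comparisons. For the 63 other tested genes of the 7 pathway lists given below, the medians in the same order were -0.06, 0.04 and -0.13. The 8 were chosen with earlier results of these data known, so their shares and medians are no test of the pathway.

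**Figure D1:**
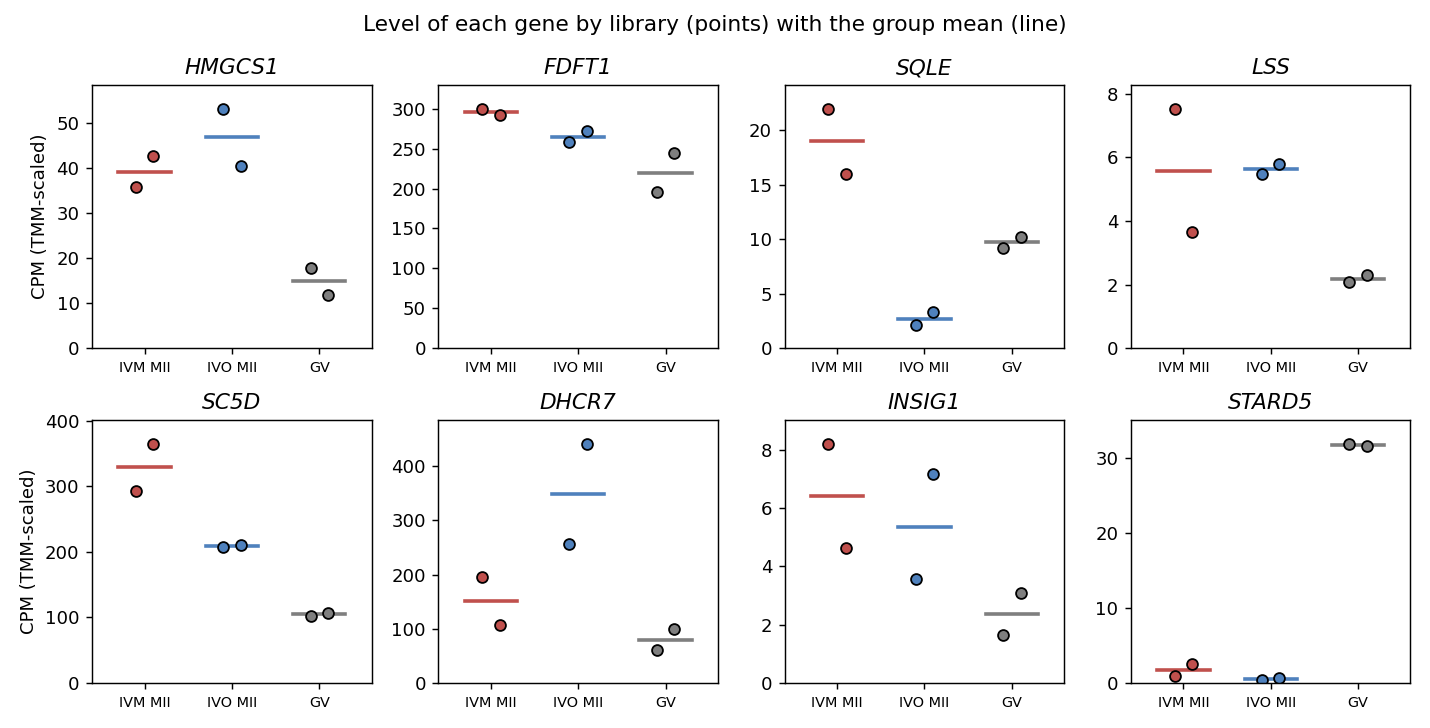
Level of each of the 8 genes in CPM (linear axes starting at 0, a different range per panel) in the 2 libraries of IVM MII, IVO MII and GV; points are libraries and lines are group means. SQLE is lowest in IVO MII, while STARD5 is near 32 CPM in GV and at 2.53 CPM or less in every MII library.

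**Figure D2:**
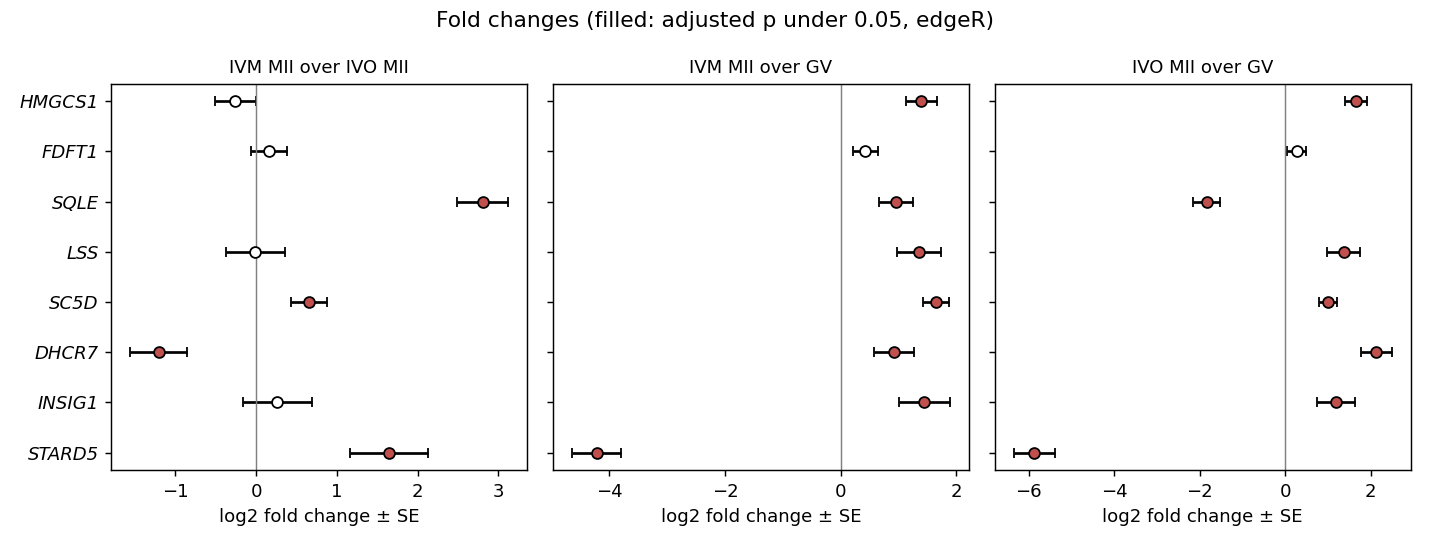
Log2 fold change with its standard error for each gene in the 3 comparisons, with filled points for an adjusted p under 0.05. SQLE lies on opposite sides of 0 for IVM MII and IVO MII over GV, at 0.97 and -1.84.

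HMGCS1, the synthase that makes HMG-CoA, is the first of the 8 in the chain and lies on macFas5 chromosome 6, 43907442 to 43931519, on the minus strand. Its level was 35.8 and 42.7 CPM in the IVM MII libraries, 53.2 and 40.6 in IVO MII, and 17.9 and 11.9 in GV. Every MII library lay above both GV libraries, and the 2 kinds of MII overlapped. The log2 fold change over GV was 1.40 ± 0.26 in IVM MII (adjusted p = 0.00118) and 1.65 ± 0.27 in IVO MII (adjusted p = 2.69e-04). Between IVM MII and IVO MII it was -0.26 ± 0.26, with an adjusted p of 0.497. ACAT2, the thiolase before HMGCS1, was at 5.32 ± 0.228 CPM in IVM MII, 3.53 ± 0.343 in IVO MII and 5.11 ± 0.479 in GV, with no call in any comparison.

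FDFT1, squalene synthase, commits farnesyl diphosphate to sterols and lies on chromosome 8, 8869046 to 8904903, on the minus strand. Its level was 299.98 and 291.8 CPM in the IVM MII libraries, 258 and 273 in those of IVO MII, and 196 and 244 in those of GV. The libraries of the 3 groups did not overlap, but none of the 3 comparisons passed the test. The log2 fold changes were 0.43 ± 0.22 for IVM MII over GV (adjusted p = 0.123), 0.27 ± 0.22 for IVO MII over GV (adjusted p = 0.308) and 0.16 ± 0.22 for IVM MII over IVO MII (adjusted p = 0.63). Groups without overlap were common, at 77.8%, 80.2% and 63.0% of all genes tested in those comparisons. FDFT1 passed over GV in IVM MII when scaled by library totals (0.73, adjusted p = 0.0161), and in both kinds of MII when the trend with gene length was removed (0.61, adjusted p = 0.0305, and 0.57, adjusted p = 0.0367). FDPS, which makes the farnesyl diphosphate that FDFT1 uses, was at 0.662 ± 0.0126 CPM in IVM MII, 0.837 ± 0.127 in IVO MII and 12.5 ± 3.54 in GV. It fell by 4.23 ± 0.37 in IVM MII and by 3.90 ± 0.37 in IVO MII on the log2 scale (adjusted p = 7.29e-06 and 8.35e-06). With the length trend removed, the IVO MII value of FDPS was -3.29. FDPS has processed pseudogenes in the human genome, and reads shared with such copies could be split between them here, which was not tested.

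SQLE, which adds oxygen to squalene and is a control point of the chain, lies on chromosome 8, 126377310 to 126402247, on the plus strand. Its level was 22.0 and 16.0 CPM in the IVM MII libraries, 2.09 and 3.33 in those of IVO MII, and 9.19 and 10.2 in those of GV. The 3 groups did not overlap, with IVM MII highest and IVO MII lowest. These rested on 949 and 563 counts in the IVM MII libraries, 54 and 98 in those of IVO MII, and 270 and 303 in those of GV. The log2 fold change was 2.80 ± 0.32 for IVM MII over IVO MII (adjusted p = 1.34e-04) and kept its call under all 14 alternatives, at 2.51 to 3.19. SQLE fell by 1.84 ± 0.31 on the log2 scale in IVO MII relative to GV (adjusted p = 4.00e-04), and that call also held under all 14 alternatives. It rose by 0.97 ± 0.29 in IVM MII over GV (adjusted p = 0.0169). That rise lost its call without GV replicate 1 (0.90), GV replicate 2 (1.05) or IVM MII replicate 1 (0.76), and with the filter of 10 CPM in 2 libraries (0.69). Of 7 tested cumulus and granulosa markers, 3 were also higher in IVM MII than in IVO MII, and none was lower. This is 42.9% of the 7, beside 14.3% higher and 10.3% lower of all genes tested. The share was similar among the 16 oocyte identity markers, where 6 were higher and 1 was lower in IVM MII, 43.8% together. Of the 3 cumulus and granulosa markers, GREM1 averaged 29.0 ± 5.28 CPM in IVM MII against 4.01 ± 1.16 in IVO MII. RUNX2 averaged 7.58 ± 0.637 CPM in IVM MII against 1.92 ± 0.0301 in IVO MII, and TNFAIP6 27.9 ± 6.02 in IVM MII against 13.7 ± 0.342 in IVO MII. The other 4 cumulus and granulosa markers did not pass. Their log2 fold changes were 0.49 for FSHR, 0.11 for VCAN, -0.24 for HAS2 and -2.74 for CYP19A1. The last rested on 0 and 4 counts in IVM MII against 17 and 3 in IVO MII. Among markers too low to test, INHBA had no count in IVM MII against 7 and 3 in IVO MII, and HSD3B2 none in IVM MII against 5 and 4 in IVO MII. The part of the cumulus and granulosa markers in the SQLE result and in the other differences between IVM MII and IVO MII was not tested.

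LSS, lanosterol synthase, closes the sterol ring and lies on chromosome 3, 564987 to 603468, on the plus strand. LSS stood at 7.52 and 3.64 CPM in the IVM MII libraries, 5.49 and 5.78 in those of IVO MII, and 2.08 and 2.30 in those of GV. All MII libraries lay above the GV libraries, and IVM MII spanned IVO MII. The log2 fold change over GV was 1.35 ± 0.38 in IVM MII (adjusted p = 0.0109) and 1.36 ± 0.38 in IVO MII (adjusted p = 0.00878). The IVM MII call ended without GV replicate 1 (1.29) and without IVM MII replicate 1 (0.77), while the IVO MII call held under all 13 alternatives that gave a value. Between IVM MII and IVO MII the log2 difference was -0.01 ± 0.36, with an adjusted p of 0.988. The exons of LSS share 314 bases with LOC107129054 on the opposite strand, which had no count in any library. CYP51A1, the demethylase that acts on the product of LSS, was found by its gene number and stood at 4.56 ± 0.821 CPM in IVM MII, 1.45 ± 0.405 in IVO MII and 4.26 ± 0.675 in GV. Its group means had the order of those of SQLE, and it was 3.14-fold higher in IVM MII than in IVO MII (adjusted p = 0.00724) and 2.93-fold lower in IVO MII than in GV (adjusted p = 0.00342). Between IVM MII and GV, the log2 difference of CYP51A1 was 0.10 ± 0.34 (adjusted p = 0.823).

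SC5D, the desaturase that introduces the ring double bond of 7-dehydrocholesterol, lies on chromosome 14, 117334713 to 117348444, on the plus strand. It reached 292 and 365 CPM in the IVM MII libraries, 207 and 210 in those of IVO MII, and 102 and 107 in those of GV. The 3 groups were apart in that order. It rose by 1.65 ± 0.22 on the log2 scale in IVM MII over GV (adjusted p = 1.36e-04) and by 1.00 ± 0.22 in IVO MII over GV (adjusted p = 0.00212), and neither call ended under any of the 14 alternatives. The difference between IVM MII and IVO MII, 0.65 ± 0.22, lay near the threshold (adjusted p = 0.0462) and was lost under 9 of 14 alternatives. These included RLE factors (0.59, adjusted p = 0.0704) and leaving out any 1 of the 6 libraries, with values of 0.49 to 0.84 and adjusted p of 0.0527 to 0.234. EBP, the isomerase before SC5D, was at 134 ± 10.7 CPM in IVM MII, 85.4 ± 31.4 in IVO MII and 165 ± 40.3 in GV. It was 1.93-fold lower in IVO MII than in GV (adjusted p = 0.0122). Without GV replicate 2 (-0.67), without IVO MII replicate 1 (-0.60) or with the length trend removed (-0.51) the call of EBP in IVO MII ended. Over GV the IVM MII value of EBP was -0.30 ± 0.28, and between IVM MII and IVO MII it was 0.65 ± 0.28, and neither passed. The difference between IVM MII and IVO MII passed at 1.09 without IVO MII replicate 2 (adjusted p = 0.0155).

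DHCR7, which reduces 7-dehydrocholesterol to cholesterol, lies on chromosome 14, 3415828 to 3430005, on the plus strand. The libraries held DHCR7 at 195 and 107 CPM in the IVM MII libraries, 257 and 442 in those of IVO MII, and 61.2 and 98.9 in those of GV. The groups were apart, with IVO MII highest, and the 2 libraries differed widely within each group. Its log2 fold change over GV was 2.13 ± 0.36 in IVO MII (adjusted p = 3.78e-04), with a call under all 14 alternatives. In IVM MII over GV it was 0.92 ± 0.35 (adjusted p = 0.0447), and the call ended without GV replicate 1 (0.62) or IVM MII replicate 1 (0.46), with RLE factors (0.87, adjusted p = 0.0522) and with the 10 CPM filter (0.64). DHCR7 was lower in IVM MII than in IVO MII, with a log2 fold change of -1.21 ± 0.35 (adjusted p = 0.0261). That call ended without IVM MII replicate 2 (-0.84), without IVO MII replicate 2 (-0.76) and with library totals (-0.97, adjusted p = 0.103).

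INSIG1, which binds SCAP in the endoplasmic reticulum and is itself induced by SREBP, lies on chromosome 3, 188224883 to 188235511, on the plus strand. Levels were 8.22 and 4.63 CPM in the IVM MII libraries, 3.56 and 7.17 in those of IVO MII, and 1.63 and 3.08 in those of GV. All MII libraries exceeded GV, and the 2 kinds of MII overlapped. The log2 fold change over GV was 1.45 ± 0.44 in IVM MII (adjusted p = 0.0177) and 1.19 ± 0.45 in IVO MII (adjusted p = 0.0376). Both calls ended without GV replicate 1 (1.07 and 0.81), the IVM MII call also without IVM MII replicate 1 (1.014) and the IVO MII call without IVO MII replicate 2 (0.61). With the length trend removed the IVO MII value of INSIG1 was 1.82. IVM MII over IVO MII gave 0.26 ± 0.43 (adjusted p = 0.689), and this value was 0.86 without IVO MII replicate 2.

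STARD5, the only one of the 8 outside the synthesis chain and its control, lies on chromosome 7, 59817377 to 59829137, on the minus strand. It was at 0.903 and 2.53 CPM in the IVM MII libraries, 0.425 and 0.645 in those of IVO MII, and 31.9 and 31.6 in those of GV. The 3 groups did not overlap, and GV lay far above both kinds of MII. The counts behind them were 39 and 89 in the IVM MII libraries, 11 and 19 in those of IVO MII, and 937 and 935 in those of GV. STARD5 was 18.7-fold lower in IVM MII than in GV (log2 fold change -4.22 ± 0.43, adjusted p = 1.75e-05). It was 58.5-fold lower in IVO MII than in GV (-5.87 ± 0.49, adjusted p = 3.23e-06), and both calls held under all 14 alternatives. The IVM MII value was -3.61 without IVM MII replicate 1 and -5.12 without IVM MII replicate 2. Between the 2 kinds of MII, STARD5 was 3.13-fold higher in IVM MII (1.65 ± 0.48, adjusted p = 0.027). That call ended without IVM MII replicate 2 (0.74), without IVO MII replicate 1 (1.39) and in the 4 libraries alone (1.68, adjusted p = 0.0667), and the value was 2.25 without IVM MII replicate 1.

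Levels were compared between genes per kilobase of exon. In IVM MII the order was SC5D at 159 ± 24.8 CPM per kb, FDFT1 at 119 ± 2.32, DHCR7 at 55.6 ± 22.9, HMGCS1 at 13.3 ± 1.65, SQLE at 8.52 ± 1.90, INSIG1 at 4.35 ± 1.72, LSS at 1.34 ± 0.661 and STARD5 at 0.868 ± 0.582. Only LSS and STARD5 overlapped as neighbours there. DHCR7 led in IVO MII, at 129 ± 48.2 CPM per kb, and overlapped FDFT1 at 107 ± 4.18, and SC5D followed at 101 ± 1.006. Lower in IVO MII were HMGCS1 at 15.9 ± 3.03, INSIG1 at 3.63 ± 1.73, LSS at 1.35 ± 0.0488, SQLE at 1.22 ± 0.394 and STARD5 at 0.271 ± 0.0788, with LSS and SQLE overlapping. In GV the order was FDFT1 at 88.8 ± 13.7 CPM per kb, SC5D at 50.6 ± 1.64, DHCR7 at 29.5 ± 9.81, STARD5 at 16.1 ± 0.101, HMGCS1 at 5.04 ± 1.43, SQLE at 4.36 ± 0.335, INSIG1 at 1.59 ± 0.690 and LSS at 0.526 ± 0.0379, with HMGCS1 and SQLE overlapping. FDFT1, SC5D and DHCR7 filled the first 3 places in every group.

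**Figure D3:**
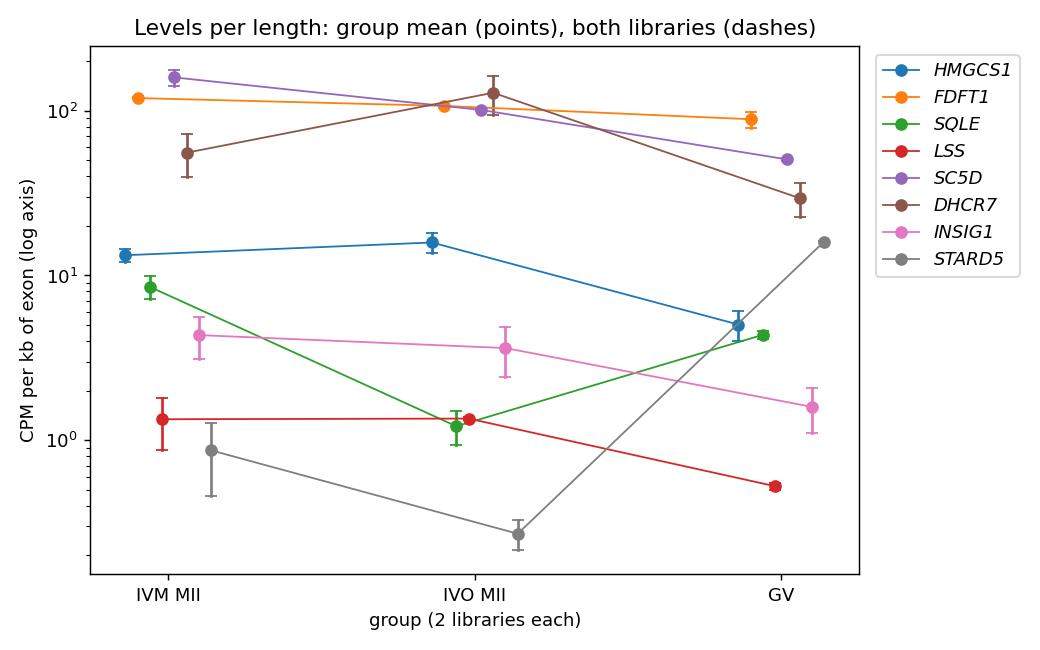
Level of each gene per kilobase of exon (CPM per kb, log axis) in IVM MII, IVO MII and GV; points are means of 2 libraries and the dashes mark the libraries. Lines join the means of a gene. STARD5 is the lowest in both MII groups and lies at 16.1 CPM per kb in GV, and SQLE is at 8.52 in IVM MII, 1.22 in IVO MII and 4.36 in GV.

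The other enzymes of the chain moved in both directions. Of the 7 further mevalonate genes in the table, all tested, 1 was higher and 2 were lower in IVM MII than in GV, and 1 and 2 in IVO MII, which is 42.9% in each, beside 50.3% and 58.5% of all genes tested. Of these, MVD in IVM MII and MVK in IVO MII rested on at most 24 counts a library and lost their calls under most alternatives. Between IVM MII and IVO MII the 7 log2 fold changes lay between -0.33 and 0.68, and none passed (smallest unadjusted p 0.0711, by edgeR). IDI1, the isomerase of the isoprenoid unit, was at 55.8 ± 14.7 CPM in IVM MII, 48.0 ± 7.46 in IVO MII and 42.0 ± 3.49 in GV without a call. MVK, PMVK and MVD, which turn mevalonate into the isoprenoid unit, were at 1.29 CPM or less in every library. Of the 8 further sterol genes, 7 were tested: 1 was higher and 3 lower in IVM MII than in GV, 2 higher and 5 lower in IVO MII than in GV, and 1 higher and 1 lower in IVM MII than in IVO MII. Those counts are 57.1%, 100% and 28.6% of the 7, beside 50.3%, 58.5% and 24.6% of all genes. TM7SF2, a C14 reductase with at most 21 counts a library, lost its IVM MII call with DESeq2 (adjusted p = 0.0591) and without any 1 GV or IVM MII library (adjusted p of 0.0627 to 0.176). HSD17B7, a ketoreductase, lost its IVO MII call with the length trend removed (-0.54, adjusted p = 0.0822). NSDHL, a demethylating dehydrogenase, stood at 7.51 ± 2.02 CPM in IVM MII, 9.23 ± 4.55 in IVO MII and 76.9 ± 2.19 in GV, 10.2-fold and 8.35-fold lower (adjusted p = 2.00e-05 and 2.53e-05). Without IVO MII replicate 1 its IVO MII value was -3.66 in place of -3.06 on the log2 scale. MSMO1, the sterol C4 oxidase, was at 32.6 ± 4.29 CPM in IVM MII, 85.4 ± 7.47 in IVO MII and 25.0 ± 0.816 in GV. Its level was 2.62-fold lower in IVM MII than in IVO MII (adjusted p = 0.00102) and 3.42-fold higher in IVO MII than in GV (adjusted p = 5.21e-05). LBR, a C14 reductase that is also a receptor of the nuclear lamina, was 2.14-fold higher in IVM MII and 2.86-fold higher in IVO MII than in GV (adjusted p = 0.00374 and 3.50e-04).

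**Figure D4:**
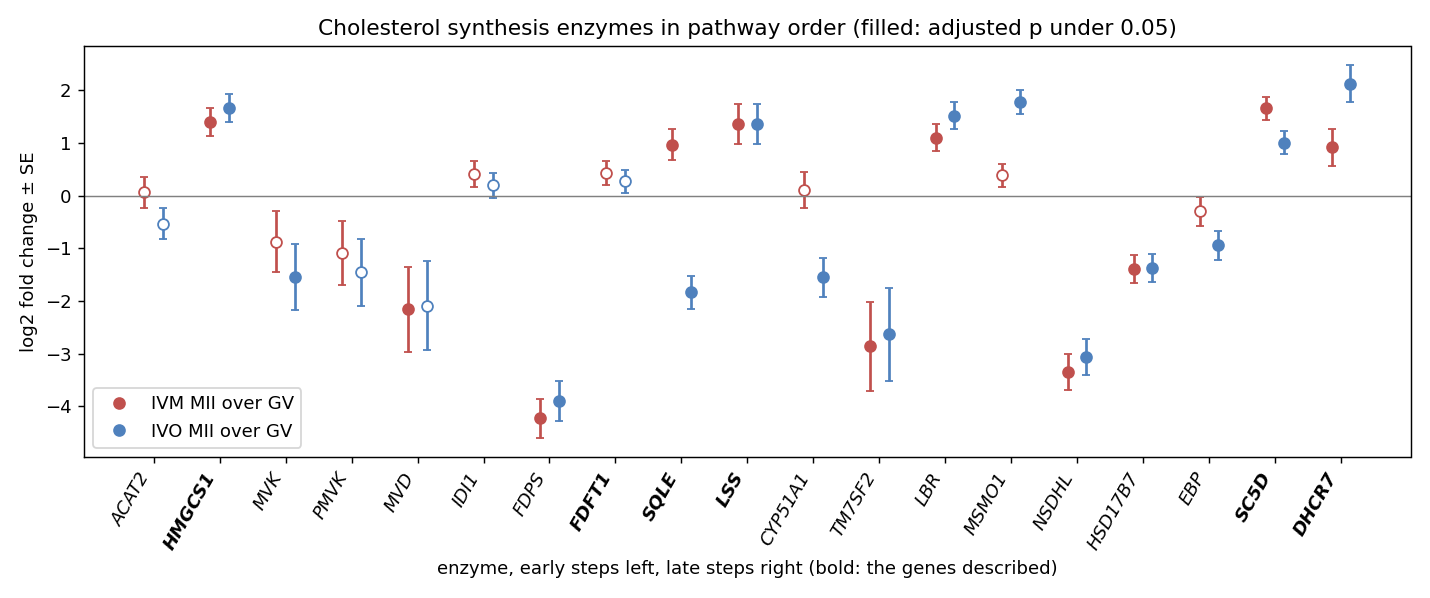
Log2 fold change over GV with its standard error for enzymes of cholesterol synthesis, from early steps (left) to late ones (right), for IVM MII and IVO MII; filled points have an adjusted p under 0.05 and bold names mark the genes described. HMGCS1, LSS, LBR, SC5D and DHCR7 are filled and above 0 in both kinds of MII. FDPS, TM7SF2, NSDHL and HSD17B7 are filled and below 0 in both.

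Among genes that sense sterols, SREBF2, which encodes the SREBP of cholesterol synthesis, stood at 10.9 ± 2.61 CPM in IVM MII, 11.4 ± 2.11 in IVO MII and 4.79 ± 0.599 in GV. Those differences passed over GV in both kinds of MII (adjusted p = 0.00572 and 0.00333). SCAP, the carrier of SREBP, stood at 0.796 ± 0.282 CPM in IVM MII, 1.33 ± 0.518 in IVO MII and 7.64 ± 1.14 in GV, 9.48-fold and 5.69-fold lower (adjusted p = 1.07e-04 and 2.97e-04). INSIG2, the paralog of INSIG1, was far more abundant than INSIG1, at 121 ± 8.09 CPM per kb in IVM MII, 115 ± 25.1 in IVO MII and 232 ± 17.2 in GV. Its CPM level was 330.3 ± 22.1 in IVM MII, 316 ± 68.6 in IVO MII and 634 ± 47.1 in GV, lower in both kinds of MII than in GV (adjusted p = 0.00677 and 0.00357). MBTPS2, a protease that releases active SREBP, was 2.94-fold and 3.91-fold higher in IVM MII and IVO MII than in GV (adjusted p = 7.18e-04 and 1.01e-04). NR1H3, the oxysterol receptor LXR alpha, was at 15.2 ± 1.15 CPM in IVM MII, 17.9 ± 0.900 in IVO MII and 215 ± 45.5 in GV. Of the 13 genes tested on this list besides INSIG1, 7 were higher and 4 lower in IVM MII than in GV, and 7 and 5 in IVO MII. This is 84.6% in IVM MII and 92.3% in IVO MII, beside 50.3% and 58.5% of all genes, and the share was not tested. Between IVM MII and IVO MII 1 was higher, the sterol-regulated ligase RNF139, at 19.0 ± 0.107 CPM in IVM MII against 10.8 ± 1.99 CPM in IVO MII. None was lower, so that 7.69% of the 13 were called, beside 24.6% of all genes tested. The RNF139 call ended when either IVM MII library (0.83 and 0.82) or IVO MII replicate 2 (0.64) was left out, and with the length trend removed (0.70).

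For uptake, the lipoprotein receptor VLDLR stood at 80.4 ± 6.68 CPM in IVM MII, 55.6 ± 6.04 in IVO MII and 209 ± 23.1 in GV, 2.601-fold lower in IVM MII and 3.76-fold lower in IVO MII (adjusted p = 4.04e-04 and 3.34e-05). MYLIP, the ligase that marks lipoprotein receptors for degradation, was at 59.6 ± 4.52 CPM in IVM MII, 70.9 ± 0.471 in IVO MII and 21.7 ± 1.81 in GV. It was 2.75-fold and 3.26-fold higher in MII than in GV (adjusted p = 2.39e-04 and 5.52e-05). Of 7 uptake genes tested, 2 were higher and 2 lower in IVM MII than in GV, and 2 and 1 in IVO MII, or 57.1% and 42.9% beside 50.3% and 58.5% of all genes. LRP2, an endocytic receptor, was the 1 higher in IVM MII than in IVO MII (3.47-fold, adjusted p = 0.00831). Its log2 fold change of 1.79 was 1.36 without IVM MII replicate 2, which ended the call. No uptake gene was lower in IVM MII than in IVO MII, so that 14.3% of the 7 were called, beside 24.6% of all genes tested.

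Of 14 tested genes that move sterols inside the cell, besides STARD5, 1 was higher and 3 lower in IVM MII than in IVO MII, a share of 28.6% that is near the 24.6% of all genes. STARD4, a START family sterol carrier like STARD5, stood at 20.7 ± 1.67 CPM in IVM MII, 81.4 ± 27.3 in IVO MII and 37.8 ± 2.34 in GV. STARD4 was 3.93-fold lower in IVM MII than in IVO MII (adjusted p = 3.65e-04). LIPA, the lysosomal lipase that frees cholesterol from lipoproteins, was at 49.6 ± 0.942 CPM in IVM MII, 114 ± 4.86 in IVO MII and 48.3 ± 4.33 in GV, 2.29-fold lower in IVM MII than in IVO MII (adjusted p = 0.00185). NPC1, which exports cholesterol from lysosomes, was at 74.5 ± 7.88 CPM in IVM MII, 144 ± 12.5 in IVO MII and 39.4 ± 1.22 in GV. Its log2 fold change for IVM MII over IVO MII was -0.96 (adjusted p = 0.0072), and the call ended at -0.85 without IVM MII replicate 2. The higher one was OSBP, an oxysterol-binding protein, at 71.7 ± 5.76 CPM in IVM MII, 35.2 ± 3.47 in IVO MII and 85.9 ± 2.07 in GV. Against GV, 5 of the 14 were higher and 4 lower in IVM MII, while 7 were higher and 3 lower in IVO MII (64.3% and 71.4%, beside 50.3% and 58.5%). Over all 7 lists, 63 of 76 genes in the table besides the 8 were tested: 6 were higher and 4 lower in IVM MII than in IVO MII, 20 and 18 in IVM MII than in GV, and 22 and 21 in IVO MII than in GV. The called shares were 15.9%, 60.3% and 68.3%, beside 24.6%, 50.3% and 58.5% of all genes tested.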

How the data were processed

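The deposited table gives raw counts by gene and library. The authors counted fragments over exons by gene with featureCounts 2.0.1 on the macFas5 RefSeq annotation, with no strand option, per the file headers. The submitters' processing notes also list fastp, FastQC, Bowtie2 and SAMtools; Bowtie2 makes no spliced alignments, so reads over exon junctions may be lost or placed in processed pseudogenes. List symbols absent from the table were looked up by gene number in RefSeq's gene list for a newer assembly, used for names only, which named 788 of 11294 LOC identifiers.

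Genes were filtered with filterByExpr, which kept 15815 of 28164 genes and all 8 described. edgeR 4.0.16 in R 4.3.3 fitted its quasi-likelihood test to all 6 libraries with TMM factors, robustly and without a replicate block. Tests were two-sided, with Benjamini-Hochberg adjustment across every tested gene. Nothing states that libraries of a group came from separate animals, so p-values measure spread between libraries only, and a group left with 1 library is assumed to vary like the others. Alternatives were RLE factors, library totals, DESeq2 1.42.0, 2 other filters, 4 libraries alone, a replicate block, each library left out and an offset removing the gene length trend. The fit was checked on simulated data in which few genes changed and all genes had the same dispersion. That check does not cover changes as widespread as those called here.

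The 8 genes and the lists were chosen with earlier results of these data known. Named genes were the 8, their neighbours in the chain, and, in each list, at most 3 called genes a direction with the smallest p. Genes outside this rule (IDI1, PMVK, SREBF2, INSIG2, PECAM1 and CDH5) were chosen after their values were seen. Some list genes are not reported here by name. Figures were drawn with matplotlib 3.10.9.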

Additional observations from a re-analysis of the deposited data

Results flagged for a closer look

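For 4 of the 8 genes the change from GV differed between maturation in vitro and in vivo, which is the test of IVM MII against IVO MII, where 24.6% of all genes tested were called. The difference of the log2 changes was 2.80 for SQLE, 0.65 for SC5D, 1.65 for STARD5 and -1.21 for DHCR7. SQLE rose in IVM MII and fell in IVO MII relative to GV, the only one of the 8 whose 2 called changes had opposite signs. The rise of SQLE over GV in IVM MII kept its call under 10 of 14 alternatives, and its fall in IVO MII under all 14. Of the 4 calls between IVM MII and IVO MII, only that of SQLE held under all 14 alternatives.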

How the results depend on the processing

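Of 18 calls of the 8 genes in the 3 comparisons, 10 held under every alternative setting that gave a value, and no called value of the 8 changed sign. INSIG1 and LSS did not pass the filter of 10 CPM in 2 libraries. That filter tested fewer genes and left 2 of the 8 above GV in IVM MII and 3 in IVO MII, with 4620 and 5586 genes called in all in place of 7961 and 9258. With library totals 0 of the 8 were lower in IVM MII than in IVO MII, all genes had a median log2 fold change of 0.24 in place of 0.02, and 75.8% of called genes were higher in place of 58.0%; over GV, the IVM MII median was 0.35 in place of 0.06 and 63.7% were higher in place of 50.9%. Leaving out 1 library gave 2080 to 3576 genes called between IVM MII and IVO MII in place of 3895, the fewest without IVM MII replicate 2 and 2571 without replicate 1. Of the 8, 1 to 2 were then higher and 0 to 1 lower, and of the other pathway genes 3 to 6 were higher. Over GV, 2 to 6 of the 8 and 13 to 21 other pathway genes were higher in IVM MII. Where no call was made, values crossed 0 for LSS in IVM MII over IVO MII (0.245 with library totals, 0.011 without a filter, 0.031 in the 4 libraries alone, -0.60 to 0.421 with a library left out, 0.031 among them) and INSIG1 (-0.185 to 0.86, with -0.154 without IVO MII replicate 1). They also crossed 0 for ACAT2 in IVM MII over GV (-0.03 in the 4 libraries alone, -0.028 with either replicate block there, -0.026 to 0.164 with a library left out) and IVO MII over GV (0.077 with the length offset). The same held in IVM MII over GV for CYP51A1 (-0.059 to 0.286 with a library left out, -0.046 among them) and EBP (0.006 with library totals). In IVO MII over GV it held for FDFT1 (-0.063 with the filter). The cause was not tested.

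Replicate numbers are shared by the groups, but no source links them, and the correlations of replicate deviations were -0.114 for IVM MII with IVO MII, -0.144 for IVM MII with GV and 0.178 for IVO MII with GV. With the replicate block SC5D lost its call between IVM MII and IVO MII (0.65, adjusted p = 0.0523) and no other call of the 8 changed. With a crossed pairing of the 4 libraries, chosen after seeing the data, 5249 genes were called between IVM MII and IVO MII (8 other pathway genes lower) and 8884 between IVM MII and GV, in place of 2418 and 7837 with the numbers as given, where 1 of the 8 was higher and 0 lower in IVM MII than in IVO MII.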

Other observations

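The branches that leave the chain at farnesyl diphosphate for other isoprenoids held 10 tested genes. In IVM MII 2 were higher and 3 lower than in GV, and in IVO MII 2 were higher and 5 lower, so that 5 and 7 of 10 were called, beside 50.3% and 58.5% of all genes tested. GGPS1, which makes geranylgeranyl diphosphate for protein anchors, was at 26.2 ± 0.130 CPM in IVM MII, 17.9 ± 1.46 in IVO MII and 81.2 ± 0.414 in GV, 3.10-fold and 4.53-fold lower in MII (adjusted p = 1.12e-04 and 1.20e-05 by edgeR). DHDDS and NUS1, which encode the subunits of the enzyme that makes dolichol chains, went opposite ways. DHDDS stood at 2.91 ± 0.259 CPM in IVM MII, 2.44 ± 0.478 in IVO MII and 12.3 ± 0.947 in GV, and NUS1 at 58.3 ± 2.96 CPM in IVM MII, 87.0 ± 9.25 in IVO MII and 23.1 ± 6.64 in GV. All 4 differences from GV passed the test. FNTA, the shared subunit of 2 protein prenyl transferases, was the 1 gene of this list that differed between IVM MII and IVO MII, at 17.0 ± 2.07 CPM in IVM MII against 5.92 ± 0.104 CPM in IVO MII (adjusted p = 0.00141). Of 5 tested genes of efflux, storage and oxidation, 1 passed as higher in IVM MII against IVO MII, 2 in IVM MII against GV and 1 in IVO MII against GV, and none was lower. Those counts are 20.0%, 40.0% and 20.0% of the 5, beside 24.6%, 50.3% and 58.5% of all genes tested. ABCA1, a cholesterol exporter, was at 135 ± 35.6 CPM in IVM MII, 67.4 ± 28.3 in IVO MII and 57.2 ± 14.5 in GV. It passed in IVM MII against IVO MII (2.00-fold higher, adjusted p = 0.0369) and against GV (adjusted p = 0.00687). The call against IVO MII ended without IVM MII replicate 2 (0.71), without IVO MII replicate 2 (0.64) and with the replicate block (0.99), and that against GV without GV replicate 1 (1.006) or IVM MII replicate 2 (0.95). SOAT1, which esterifies cholesterol, was at 259 ± 35.3 CPM in IVM MII, 321 ± 69.4 in IVO MII and 138 ± 21.1 in GV. It was higher than in GV in both kinds of MII (adjusted p = 0.00913 and 0.00126), and the IVM MII call ended without GV replicate 1 (0.77) or IVM MII replicate 1 (0.80).

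The likeness of 2 genes was measured as the root mean square difference of their log2 CPM over the 6 libraries, each centred on its own mean. Among the 8, LSS and INSIG1 were nearest to each other at 0.38, and SC5D and HMGCS1 followed at 0.44. STARD5 was the farthest from each of the other 7, and its nearest was SQLE at 2.30. Among 6837 other named genes with 10 CPM or more in a group, the nearest were WDR11 to HMGCS1 (0.05), FAM149A to SQLE (0.21), BLCAP to LSS (0.10), ZHX3 to FDFT1 (0.08), CRB3 to DHCR7 (0.12), MAT2B to SC5D (0.06), THOC3 to INSIG1 (0.14) and ATPIF1 to STARD5 (0.35).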
